A study of Mus musculus with 12 samples.

Results

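The nuclear-encoded genes of respiratory complex I were taken as every gene of the deposited expression table whose symbol begins with Nduf, pseudogene names ending in -ps being left out. This rule uses names alone and gave 45 of the 48321 genes in the table, spread over 16 chromosomes. Of these, 36 encode structural subunits of the complex (7 core and 29 accessory subunits), 7 encode assembly factors (Ndufaf1 to Ndufaf7) and 2, Ndufa4 and Ndufa4l2, carry an Nduf name but belong to complex IV. All 45 passed the filter on low values and were tested, and all 45 matched an entry of the GENCODE annotation of the mouse genome build GRCm38.

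RNAseq had been performed on immortalized brown adipocytes, to learn which cellular processes a cleaved, soluble form of Semaphorin 4B perturbs in fat cells. Preadipocytes of C57BL/6J interscapular brown fat, which the study's methods trace to a single newborn wild type mouse and which were immortalized with SV40 large T antigen, were stably transduced with lentivirus carrying either the empty pLEX vector (vector cells) or truncated Semaphorin 4B (tSema4B cells). Both lines were differentiated for 8 days and then kept unstimulated or exposed to 2 μM norepinephrine (NE), the adrenergic agonist that activates brown fat, for 6 h in serum-free medium with albumin. Each line, vector or tSema4B, thus gave an unstimulated and an NE group, 4 groups in all with 3 libraries apiece. All groups share the wild type genotype, the SV40 large T antigen, the lentiviral backbone and the differentiation protocol, and each construct is represented by 1 stable cell line. Since the 3 libraries per condition are described as technical replicates, p-values measure the spread between such libraries and not between independently made lines or animals.

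Complex I, or NADH:ubiquinone oxidoreductase, is the entry point of electrons from NADH into the mitochondrial respiratory chain. Its matrix arm holds the N module, which oxidizes NADH with the help of flavin and iron-sulfur clusters, and the Q module, which hands the electrons to ubiquinone. Its membrane arm pumps protons and is built around subunits encoded by the mitochondrial genome, so that the complex needs transcripts from both genomes. Brown adipocytes are packed with mitochondria, and their uncoupled respiration depends on a high capacity of this chain to oxidize NADH.

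The libraries held 2000780 to 5409583 reads on genes, and the vector NE libraries were the deepest. Sema4b, the gene of the construct, ranged from 65472 to 124008 normalized counts in the 6 vector libraries and from 208760 to 316850 in the 6 tSema4B libraries, without overlap, with log2 fold changes of 1.27 without stimulation and 1.65 after NE. Its level was thus high in the libraries labelled empty vector too, where it ranked 2 or 3 of all genes by normalized count (1 in every tSema4B library), and reads of the transgene and of the cells' own gene are not told apart. The cells carried adipocyte markers, which summed to between 42229 and 67499 normalized counts in vector libraries and between 7368 and 12901 in tSema4B libraries, and 10 of the 10 markers were lower in tSema4B cells in both comparisons. The 7 brown adipocyte markers, 1 of them at 0 in every library, summed to far less. Their sums were 152 to 199 in unstimulated vector and 29.8 to 57.5 in unstimulated tSema4B libraries. After NE the brown marker sums were 456 to 485 in vector and 99.1 to 130 in tSema4B libraries. Preadipocyte and fibroblast markers ran the other way, with sums of 17868 to 22423 in vector and 36772 to 45692 in tSema4B libraries. Their 10 tested genes included 8 that were higher in tSema4B cells without stimulation and 9 after NE. Endothelial markers never summed above 52.9 normalized counts and macrophage markers never above 59.6 in a library, and the defining genes Cldn5 and Adgre1 were at 0 throughout. In bulk RNA, fewer differentiated adipocytes and less RNA per adipocyte cannot be told apart, and the part of either in the differences below was not tested.

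The transcripts of the 45 members differed widely in level. On the scale of normalized counts per kb of transcript, which allows for length, the complex IV gene Ndufa4 stood highest in unstimulated vector cells at 3505. The highest of complex I were the distal membrane arm subunit Ndufb9 at 1650.0 and the N module subunits Ndufa6 and Ndufv2 at 1192 each. The lowest levels per kb were those of Ndufb2 at 23.9, Ndufb4 at 27.2, the assembly factor Ndufaf5 at 36.4, Ndufa4l2 (also complex IV) at 40.2 and Ndufaf4 at 42.9. The length used was the median over the transcripts of a gene, 2413 bases for Ndufb2 and 2152.5 for Ndufaf4. These genes also have transcripts of 455 and 673 bases, which would give higher levels per kb, so their place rests on the length taken. The transcripts were short, with a median length of 813 bases (382 to 2413), and 33 of the 45 were 1000 bases or shorter.

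With tSema4B the complex I genes were lower as a group. In unstimulated cells 16 of the 45 were lower and 0 were higher (limma on log2 normalized counts, adjusted p of 0.05 or less over 11998 genes), against a background in which 7.39% of all tested genes were lower and 5.64% higher. After NE 27 of the 45 were lower and 0 were higher, where 11.2% of all genes were lower and 9.79% higher. At an unadjusted p under 0.05, 1 member (Ndufa4) was higher without stimulation and 0 after NE, and edgeR and DESeq2 likewise called 0 members higher in both. The median log2 fold change of the 45 was -0.40 without stimulation and -0.59 after NE, and the sign was negative for 42 and 44 of them. Most changes were moderate. A log2 fold change of -1 or less was reached by 1 member without stimulation (2.71% of all genes, background). This was Ndufa4l2, which belongs to complex IV and rests on few reads. After NE it was reached by 5, namely Ndufa4l2, Ndufc2, Ndufaf4, Ndufa5 and Ndufb6 (3.73% of all genes). The 16 and the 27 lower members also include Ndufa4l2. The 3 tSema4B libraries lay wholly below the 3 vector libraries for 23 members without stimulation, compared with 15.1% of all genes, and for 35 members after NE, compared with 19.8%.

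**Figure D1:**
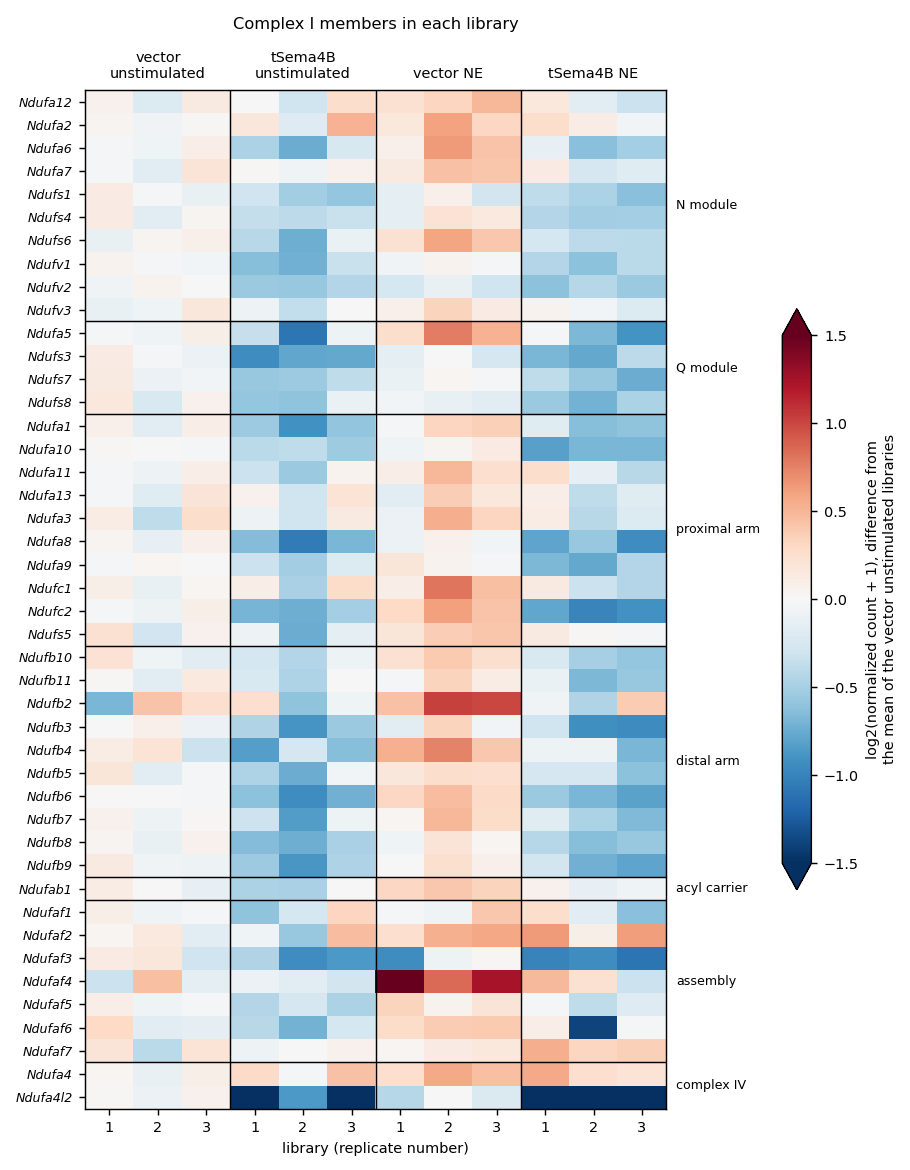
Heat map of 44 of the 45 members (rows, grouped by their place in the complex) in the 12 libraries (columns, 3 per group), showing log2(normalized count + 1) minus the mean of the unstimulated vector libraries, with colours limited to 1.5 in either direction. Most rows are lower in the 6 tSema4B libraries than in the 6 vector libraries, and Ndufa4 is an exception.

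Both tSema4B comparisons share no library, though they compare the same pair of cell lines. All 16 members that were lower without stimulation were also lower after NE, which is 100% of the first list and 59.3% of the second. Of all genes, 591 were lower in both, or 66.6% of the 887 that were lower without stimulation and 44% of the 1342 after NE, so a large overlap was general. The 11 members past the test only after NE were the accessory subunits Ndufa5, Ndufa7, Ndufa9, Ndufb5, Ndufb7, Ndufb10, Ndufb11, Ndufc1 and Ndufs6, the core subunit Ndufs8 and the assembly factor Ndufaf4. Past the test in neither comparison were 18 members, among them the accessory subunits Ndufa2, Ndufa3, Ndufa11, Ndufa12, Ndufa13, Ndufab1, Ndufb2, Ndufb4, Ndufs5 and Ndufv3, the other 6 assembly factors and Ndufa4. A call in one comparison and not in the other does not show that the effect of tSema4B differed between the conditions, and the test of that difference is given further below.

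**Figure D2:**
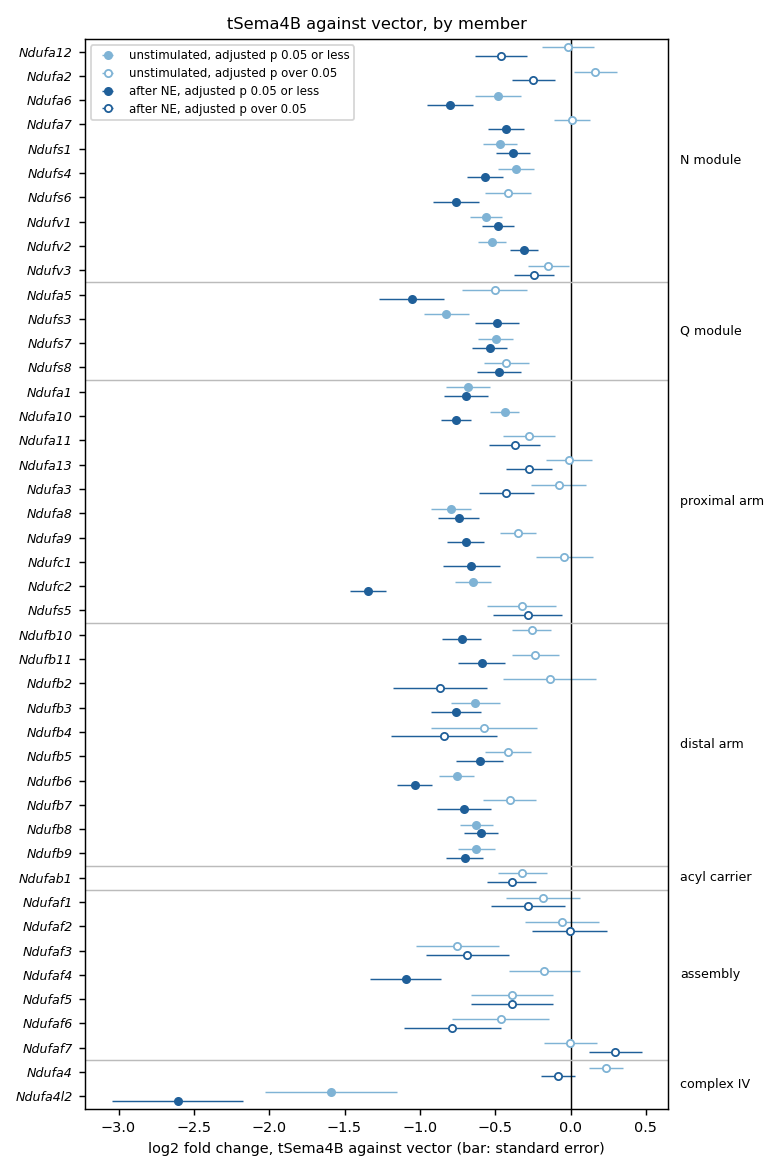
Log2 fold change of tSema4B against vector (horizontal axis, bars are standard errors) for 44 of the 45 members, unstimulated in light blue and after NE in dark blue, with filled points for an adjusted p of 0.05 or less. The filled points, 16 without stimulation and 27 after NE, all lie left of zero, and Ndufa4l2 lies farthest left in both comparisons.

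Among the nuclear core subunits, which carry the flavin and the iron-sulfur clusters or bind ubiquinone, 5 of 7 were lower in unstimulated tSema4B cells and 6 of 7 after NE, with median log2 fold changes of -0.50 and -0.48, beside the 7.39% and 11.2% of all genes that were lower. With library totals set equal over all genes the median after NE was -0.38 and 2 of 7 passed, beside 8.58% of all genes. The calls of Ndufs1, Ndufs3, Ndufs8 and Ndufv2 were lost. Ndufs3, a core subunit of the Q module that is among the first to be assembled, had the lowest value of the structural subunits without stimulation. Its normalized counts were 259.5, 234 and 225 in the vector libraries and 125, 139 and 139.6 in the tSema4B libraries. After NE they were 217, 241 and 201 in vector and 148, 140.1 and 182 in tSema4B cells. The groups did not overlap in either condition, and the log2 fold change was -0.83 (SE 0.15, adjusted p = 0.000466) without stimulation and -0.49 (SE 0.15, adjusted p = 0.0222) after NE. Another annotated gene, Gm12251, shares 19.9% of the 100-base windows of its transcript, so the count of Ndufs3 is less certain than most, and the call after NE did not hold in 5 of 19 alternatives, including those without vector NE replicate 1 or 2 or tSema4B NE replicate 1 or 2, with an adjusted p of up to 0.106. Ndufv1, which binds flavin and takes the electrons from NADH, had log2 fold changes of -0.56 and -0.48. Ndufv2 (-0.52 and -0.31), Ndufs1 (-0.47 and -0.38) and Ndufs7 (-0.50 and -0.54), which hold iron-sulfur clusters, were lower in both comparisons. Ndufs8, another iron-sulfur protein, was lower after NE at -0.48, while its value of -0.43 without stimulation did not pass. Some of these calls rest on single libraries. After NE that of Ndufs8 was lost without any 1 vector NE replicate or without tSema4B NE replicate 2, that of Ndufv2 without vector NE replicate 2 or tSema4B NE replicate 1 or 3 and under quantile normalization, and that of Ndufs1 without vector NE replicate 2 or tSema4B NE replicate 3, and over all alternatives the adjusted p reached 0.0891, 0.105 and 0.134. Without stimulation the call of Ndufs1 was lost without vector unstimulated replicate 1 (adjusted p = 0.0548).

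The accessory subunits of the matrix arm surround this core. Ndufa6, a member of the LYR protein family in the N module, was lower in both comparisons. Unstimulated vector cells gave 444, 436 and 487 normalized counts and tSema4B cells 327, 272 and 386, and the highest tSema4B value was under the lowest vector value. After NE the vector libraries held 479.7, 709 and 612 and the tSema4B libraries 416, 294 and 319.8, with no overlap. The log2 fold change of Ndufa6 was -0.48 (SE 0.15, adjusted p = 0.0375) without stimulation and -0.80 (SE 0.15, adjusted p = 0.000594) after NE. The first of these calls was lost in 7 of 19 alternatives, among them each of the 5 that left out a vector unstimulated replicate or tSema4B unstimulated replicate 1 or 2, with an adjusted p of up to 0.173. Ndufa5, an accessory subunit next to the Q module, had a log2 fold change of -0.50 without stimulation that did not pass (adjusted p = 0.134). Its normalized counts after NE were 351, 497 and 421 in vector and 286, 183 and 156 in tSema4B cells. The highest tSema4B library stayed under the lowest vector library, and the mean was 49.2% of that in vector cells, or -1.05 (SE 0.22, adjusted p = 0.00121) on the log2 scale. Ndufs4, needed to attach the N module and mutated in Leigh syndrome, was lower at -0.36 and -0.57, although the first value just reached the threshold (adjusted p = 0.0499) and was lost in 12 of 19 alternatives, those without any 1 unstimulated library other than vector replicate 2 included, with an adjusted p of up to 0.195. Ndufs6, a zinc-binding subunit, was lower after NE at -0.76, as was Ndufa7 at -0.43, a subunit at the N module whose value without stimulation was 0.01. The call of Ndufa7 was lost without vector NE replicate 2 or 3 or tSema4B NE replicate 2 (adjusted p of up to 0.0619). For the remaining N module subunits Ndufa2, Ndufa12 and Ndufv3 the values lay between -0.15 and 0.17 without stimulation and between -0.46 and -0.24 after NE, and none passed.

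The membrane arm had 8 of its 20 nuclear subunits lower without stimulation and 14 lower after NE, against 7.39% and 11.2% of all genes. The median log2 fold change moved from -0.34 to -0.68 over the 10 proximal subunits, which adjoin the matrix arm, and from -0.49 to -0.71 over the 10 distal subunits. Ndufc2, a proximal accessory subunit, showed the largest change of all structural subunits after NE. Its gene lies on chromosome 7 from 97400003 to 97407802, on the plus strand of GRCm38. It counted 409, 394 and 441 in the unstimulated vector libraries and 256, 249 and 290.2 in the tSema4B libraries. With NE the counts were 509, 638 and 558 in vector and 241, 207 and 221 in tSema4B cells. Every tSema4B library was below every vector library in both conditions, and the NE-treated vector libraries were the highest of all. The tSema4B mean was 63.9% of the vector mean without stimulation and 39.2% after NE, with log2 fold changes of -0.65 (SE 0.12, adjusted p = 0.000679) and -1.34 (SE 0.12, adjusted p = 5.5e-08).

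Ndufb6, a distal accessory subunit encoded on the minus strand of chromosome 4 from 40270591 to 40279421, was lower in both comparisons. The unstimulated counts were 426, 426 and 420.4 in vector and 277, 223 and 256 in tSema4B cells. After NE they were 525, 586 and 517 in vector and 287, 264 and 242 in tSema4B cells. The tSema4B libraries again lay below all vector libraries, at 59.4% and 48.7% of the vector mean, and the log2 fold changes were -0.76 (SE 0.12, adjusted p = 8.68e-05) and -1.04 (SE 0.12, adjusted p = 1.5e-06). Ndufb6 shares 257 exon bases with Smim27 on the opposite strand, and since the libraries do not mark strand, reads of the pair cannot be told apart there.

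Ndufa8, a subunit with cysteine motifs that faces the intermembrane space, was lower in both comparisons. Its normalized counts were 410.5, 366 and 421 in unstimulated vector and 254, 192 and 248 in unstimulated tSema4B cells. After NE they were 376, 418 and 387 and 231, 268 and 209. The groups did not overlap, and the log2 fold changes were -0.79 (SE 0.13, adjusted p = 0.000232) and -0.74 (SE 0.13, adjusted p = 0.000379). Ndufa1, a small X-linked membrane subunit required for assembly, had 429, 359.9 and 433 normalized counts in unstimulated vector and 278, 217 and 269.7 in unstimulated tSema4B cells. The NE libraries held 398, 509 and 521 and 357, 259 and 267. All tSema4B libraries were lower than all vector libraries of the same condition, with log2 fold changes of -0.68 (SE 0.15, adjusted p = 0.0027) and -0.70 (SE 0.15, adjusted p = 0.00157). Among the rest of the arm, Ndufa10, with a fold like that of nucleoside kinases, was lower at -0.44 and -0.76. The distal subunits Ndufb3 (-0.63 and -0.76), Ndufb8 (-0.62 and -0.60) and Ndufb9 (-0.62 and -0.70), the last another LYR protein, were also lower in both comparisons. Past the test after NE but not without stimulation were Ndufa9 (-0.70), which binds a nucleotide at the joint of both arms, Ndufc1 (-0.66), Ndufb5 (-0.60), Ndufb7 (-0.71), Ndufb10 (-0.72) and Ndufb11 (-0.59). Leaving out vector NE replicate 2 or tSema4B NE replicate 2 ended the calls of Ndufc1 and Ndufb11, leaving out tSema4B NE replicate 3 also ended that of Ndufc1, and the adjusted p reached 0.117 and 0.0618. Without stimulation the call of Ndufb3 was lost without replicate 2 of either unstimulated group (adjusted p of up to 0.0694). Ndufb2 (-0.86) and Ndufb4 (-0.84), both of low level, had values of similar size after NE that did not pass, with standard errors of 0.31 and 0.35. The values of Ndufa3, Ndufa11, Ndufa13 and Ndufs5 after NE ranged from -0.43 to -0.28, and none passed.

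Ndufab1, the mitochondrial acyl carrier protein that serves both complex I and fatty acid synthesis, had log2 fold changes of -0.32 and -0.39, and neither passed. Near-identical copies hold 62.7% of its 100-base windows, so its level rests on how reads with several matches were counted. Such copies or overlaps also take 33.4% of the windows of Ndufb4, 24.0% of Ndufa13, 17.7% of Ndufa12 and 12.9% of Ndufb2. Ndufb9 and Ndufs5 have such stretches too, and 19 of the 45 members share exon bases with another annotated gene.

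Among the 7 assembly factors 0 were lower without stimulation (limma, 1 at an unadjusted p under 0.05, 0 in edgeR and DESeq2, and 1 with library totals set equal over nuclear genes) and 1, Ndufaf4, was lower after NE (2 in edgeR and 1 in DESeq2), with medians of -0.18 and -0.39. Beside the 7.39% and 11.2% of all genes that were lower, counts this small in 7 genes do not set the assembly factors apart. Ndufaf4, encoded on the plus strand of chromosome 4 from 24898083 to 24905001, works with Ndufaf3 on the early Q module intermediate. Its normalized counts without stimulation were 71.7, 124 and 81.7 in vector and 84.6, 80.4 and 73.9 in tSema4B cells. After NE they were 273, 162 and 212 and 127, 105 and 71.4. The unstimulated groups overlapped, while after NE the lowest vector library was above the highest tSema4B library. The tSema4B mean was 46.8% of the vector mean after NE, or -1.09 (SE 0.24, adjusted p = 0.0021) on the log2 scale, against -0.17 (adjusted p = 0.705) without stimulation. Ndufaf3 had values of -0.75 and -0.68 that did not pass (adjusted p = 0.0775 and 0.082). Ndufaf1, of the machinery that builds the membrane arm, had -0.18 and -0.28, and Ndufaf2, which acts late in assembly, had -0.06 and -0.01. For Ndufaf5, a hydroxylase of Ndufs7, the values were -0.39 and -0.39. For Ndufaf6 they were -0.46 and -0.78. Ndufaf7, a methyltransferase, was the single member with a positive value after NE, at 0.30 (adjusted p = 0.25).

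The 2 members that belong to complex IV, Ndufa4l2 and Ndufa4, are described apart from complex I. Ndufa4l2, a relative of Ndufa4 known as a target of hypoxia-inducible factor, was the member farthest from the median in both tSema4B comparisons. Its gene lies on the plus strand of chromosome 10 from 127514967 to 127517154. Its normalized counts were 38.0, 35.3 and 39.2 in unstimulated vector and 8.34, 20.1 and 9.58 in unstimulated tSema4B cells. With NE they were 27.5, 37.3 and 32.1 in vector and 3.22, 6.63 and 3.96 in tSema4B cells. The groups did not overlap, but the tSema4B libraries rest on 7 to 13 reads without stimulation and on 3 to 7 after NE. The log2 fold change was -1.59 (SE 0.44, adjusted p = 0.0167) without stimulation and -2.61 (SE 0.44, adjusted p = 0.000164) after NE. The first call was lost in 7 of 18 alternatives, among them each that left out a vector unstimulated replicate or tSema4B unstimulated replicate 1 or 3, with an adjusted p of up to 0.0698, while the second held in all 18. Ndufa4, a subunit of complex IV that was long assigned to complex I, had 1648, 1484 and 1705 normalized counts in unstimulated vector and 1957, 1592 and 2182 in unstimulated tSema4B cells. After NE it had 1914, 2389.8 and 2192 and 2391, 1912 and 1849.8. Its groups overlapped in both conditions, with log2 fold changes of 0.23 (SE 0.11, adjusted p = 0.183) and -0.08 (SE 0.11, adjusted p = 0.655).

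**Figure D3:**
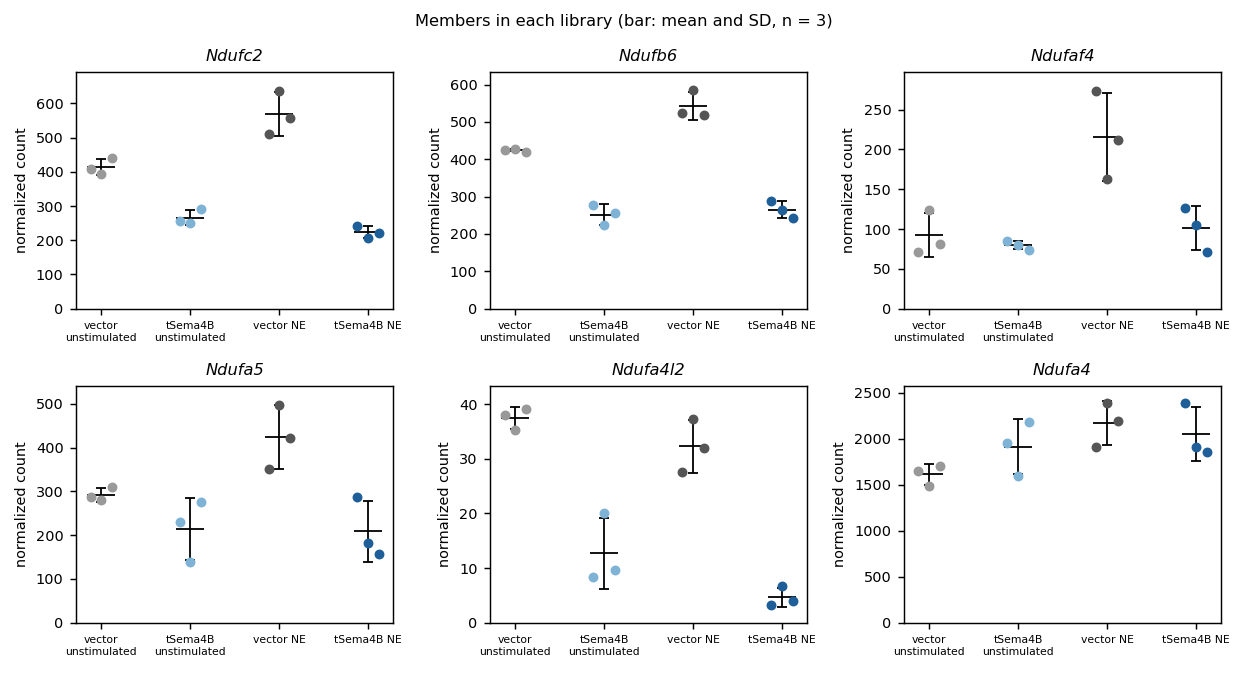
Normalized counts (vertical axes from zero) of Ndufc2, Ndufb6, Ndufaf4, Ndufa5, Ndufa4l2 and Ndufa4 in each library (points), with the mean and SD of the 3 libraries of a group (bars). Ndufc2 and Ndufb6 are lower in all tSema4B libraries, Ndufaf4 is higher in the vector NE libraries than in all others, and the groups overlap for Ndufa4.

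The promoters of Ndufc2, Ndufb6 and Ndufaf4 are shown because these genes had some of the largest log2 fold changes past the test, in the membrane arm and in assembly. The 250 bases before the annotated start come from RefSeq (GRCm38.p6) and are written 5′ to 3′ on the strand of the gene. Those of Ndufc2 are chr7:97399753-97400002, plus strand, those of Ndufb6 chr4:40279422-40279671, minus strand, and those of Ndufaf4 chr4:24897833-24898082, plus strand. Capitals mark a match to the NRF1 motif, NRF1 being a transcription factor of nuclear respiratory genes.
Ndufc2: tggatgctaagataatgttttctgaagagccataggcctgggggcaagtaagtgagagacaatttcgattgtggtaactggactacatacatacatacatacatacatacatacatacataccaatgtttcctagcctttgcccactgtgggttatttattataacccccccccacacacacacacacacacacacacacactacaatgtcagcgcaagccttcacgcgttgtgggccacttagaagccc
Ndufb6: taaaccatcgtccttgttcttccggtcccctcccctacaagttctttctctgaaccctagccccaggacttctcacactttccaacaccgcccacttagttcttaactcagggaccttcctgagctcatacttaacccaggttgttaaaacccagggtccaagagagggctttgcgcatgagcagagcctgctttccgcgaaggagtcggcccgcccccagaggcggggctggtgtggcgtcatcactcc
Ndufaf4: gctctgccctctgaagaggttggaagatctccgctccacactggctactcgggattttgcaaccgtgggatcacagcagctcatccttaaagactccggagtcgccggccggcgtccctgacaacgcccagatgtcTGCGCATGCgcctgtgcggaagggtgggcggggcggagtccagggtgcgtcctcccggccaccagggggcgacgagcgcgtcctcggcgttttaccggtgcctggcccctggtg
The GC content of these windows was 45.2% for Ndufc2, 56.4% for Ndufb6 and 66.4% for Ndufaf4. The match in Ndufaf4 begins 114 bases before the start. The same letters, TGCGCANGC on either strand, were found in 5 of the 39 members with a window, namely Ndufa5, Ndufa6, Ndufaf4, Ndufb4 and Ndufs5, and in 3.95% of all 27025 genes with a window. Neither the ERR alpha motif TCAAGGTCA (0.422% of all genes) nor the GABPA motif CCGGAAGT (3.23%) was found in a window of the members. A match describes letters in the window and not a bound site. Ndufa4l2 had no window, nor had Ndufa2, Ndufaf6, Ndufb9 and Ndufs1. The windows of Ndufa5, whose change after NE was close to that of Ndufb6, lie within annotated exons and are not shown.

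In vector cells exposed to NE for 6 h, 3 of the 45 were higher and 0 were lower, a share of 6.67% that is close to the 6.82% of all genes that were higher (4.78% were lower). At an unadjusted p under 0.05, 1 member, Ndufv2, was lower, and edgeR and DESeq2 called 0 lower. The number called higher rested on the test. It was 4 in edgeR (7.77% of all genes) and 6 in DESeq2 (8.39% of all genes), and a fit of the 6 vector libraries alone called 11 of the 45, above the 9.85% of all genes in that fit. The 3 past the limma test were Ndufaf4, Ndufc2 and Ndufa4. From the counts given above, the mean of Ndufaf4 went from 92.3 ± 27.5 to 216 ± 55.3 (SD, n = 3), which on the log2 scale was 1.22 (SE 0.24, adjusted p = 0.00165) and held in every alternative. Ndufc2 went from 415 ± 23.9 to 569 ± 64.8, or 0.45 (SE 0.12, adjusted p = 0.0172) on the log2 scale. Ndufa4 went from 1612 ± 115 to 2165 ± 239, or 0.42 (SE 0.11, adjusted p = 0.0155) on the log2 scale. The vector NE libraries lay wholly above the unstimulated vector libraries for all 3 genes. The same held for members that did not pass, such as Ndufa5 and Ndufb6, and the share of all genes was not computed. The calls for Ndufc2 and Ndufa4 were each lost in 5 of 19 alternatives, with adjusted p-values of up to 0.114 and 0.0928, and leaving out vector unstimulated replicate 1 ended the call of Ndufc2 but not that of Ndufa4. Leaving out vector unstimulated replicate 2, vector NE replicate 2 or vector NE replicate 3 reduced the 3 calls to 1, and leaving out vector NE replicate 1 raised them to 5. Of all genes 3.69% to 4.87% were higher in these fits.

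Below this threshold the values of core and accessory subunits lay apart in vector cells. All 7 core subunits had a negative log2 fold change with NE, with a median of -0.10, and 28 of the 29 accessory subunits had a positive one, with a median of 0.28. The signs of the core subunits rested on single libraries. Leaving out vector unstimulated replicate 1 left 4 of the 7 negative, with a median of -0.02, and leaving out vector NE replicate 1 or 3 left 5 and 6. The accessory subunits with a positive value numbered 25 to 29 of 29 over the 6 fits that drop 1 vector library, with medians of 0.21 to 0.37. No core subunit and 1 accessory subunit, Ndufc2, passed the test, and this contrast of the sets was not tested. The transcripts of the cytosolic ribosome, which are also short and abundant, had a median of 0.53 in the same comparison with 79 of 80 positive, while other genes with transcripts of 1000 bases or fewer had a median of 0.07. Their part in the values of the accessory subunits was not tested.

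In tSema4B cells NE left no member past the test (0 of 45 in limma, 4 at an unadjusted p under 0.05, 0 in edgeR and 0 in DESeq2), where 3.68% of all genes were higher and 2.58% lower. The median log2 fold change was 0.03. The member farthest from it was Ndufa4l2, with 7 to 13 reads before and 3 to 7 reads after NE and a value of -1.24 (SE 0.44, adjusted p = 0.0994). The values of Ndufaf4, Ndufc2 and Ndufa4, the 3 members that rose in vector cells, were 0.30, -0.25 and 0.10 here.

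**Figure D4:**
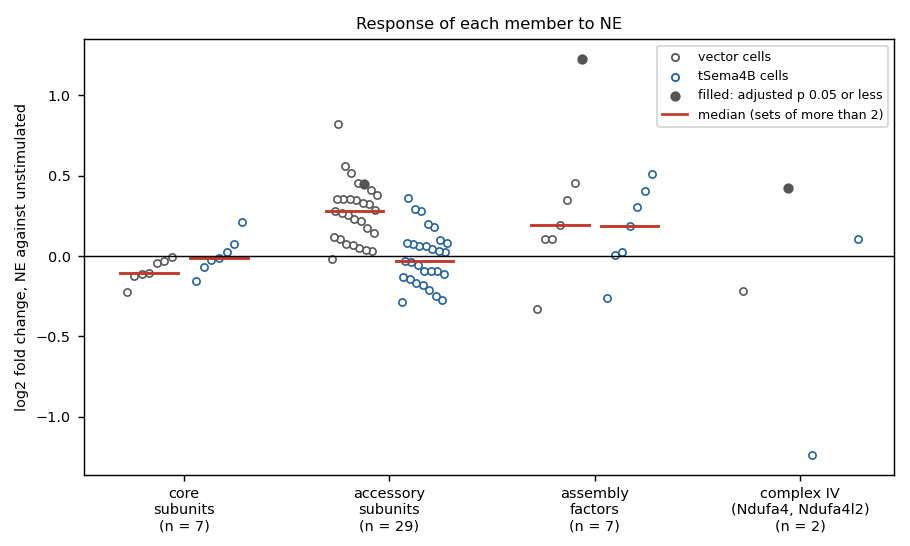
Log2 fold change of NE against unstimulated (vertical axis) for each member, in vector cells (grey) and tSema4B cells (blue), by core subunits (7), accessory subunits (29), assembly factors (7) and complex IV genes (2), with points filled where the adjusted p was at most 0.05 and a red bar for the median. The 3 filled points are Ndufaf4, Ndufc2 and Ndufa4 in vector cells.

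Whether the effect of tSema4B differed between unstimulated and NE-treated cells was tested by the interaction of both factors. No member passed (0 of 45 in limma, 6 at an unadjusted p under 0.05), and of all genes 0.025%, or 3 genes, passed. Counts by edgeR gave 0 members, 8 at an unadjusted p under 0.05, while DESeq2 gave 1 of the 37 members with an adjusted p, Ndufc2, with a log2 difference of -0.71 (SE 0.18, adjusted p = 0.0164), where DESeq2 called 29 higher and 58 lower of all 11998 genes and edgeR 3 and 1. The limma value of Ndufc2 was -0.70 (SE 0.17, adjusted p = 0.137) and that of Ndufaf4 -0.92 (SE 0.34, adjusted p = 0.327). Ndufa4l2 had the lowest value, -1.02 (SE 0.62, adjusted p = 0.617), on few reads, and Ndufs3 the highest, 0.34 (SE 0.21, adjusted p = 0.627). The median over the members was -0.20, with 34 negative and 11 positive, and it ran from -0.32 without tSema4B NE replicate 1 to -0.10 without tSema4B NE replicate 3. For cytosolic ribosomal protein genes the median of the same term was -0.56, with 78 of 80 negative, and whether the members' values go with it was not tested.

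Libraries of a group differed in complex I level as a block. Within the tSema4B unstimulated group, replicate 2 was lowest for 34 of the 45 members and replicate 3 highest for 31. Within the vector NE group, replicate 1 was lowest for 35 and replicate 2 highest for 31, and tSema4B NE replicate 1 was the highest for 34. The median member in these 5 libraries deviated from its group mean by -0.18, 0.16, -0.12, 0.14 and 0.15 on the log2 scale, and cytosolic ribosomal protein genes deviated by -0.25, 0.20, -0.12, 0.07 and 0.15. A covariate for this deviation was chosen after the data were seen. Being taken from group means, it left the members' medians at -0.40 and -0.59 and could change only the spread. With it 19 members were lower without stimulation and 30 lower after NE, beside 8.07% and 12.2% of all genes. In the comparisons of tSema4B with vector, the median of the 80 ribosomal protein genes was 0.13 without stimulation, opposite in sign to the -0.40 of the complex I genes, and -0.47 after NE.

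The mitochondrially encoded subunits, which form the proton-pumping core of the membrane arm, were lower as well. Of the 7 genes, mt-Nd4l was at 0 in every library and 6 were tested, of which 4 were lower without stimulation and 6 after NE, beside 7.39% and 11.2% of all genes, with medians of -0.87 and -0.88. Leaving out vector NE replicate 3 or tSema4B NE replicate 1 ended the call of mt-Nd6 after NE (adjusted p of up to 0.146). For mt-Nd1, chosen after its values were seen, the libraries held 31150.2, 31673 and 30554 normalized counts in unstimulated vector and 14377, 14156 and 14004 in unstimulated tSema4B cells. After NE they held 35453, 34501 and 38286 and 16386, 18684 and 18149.5. The groups stood far apart, with log2 fold changes of -1.13 (SE 0.06, adjusted p = 6.24e-12) and -1.02 (SE 0.06, adjusted p = 2.97e-11). Under quantile normalization the value after NE turned to 0.0217 (adjusted p = 0.931), so that 5 of the 6 genes passed, while in the other 18 alternatives it stayed negative and past the test. The sum of the 45 nuclear members was 17720 ± 774, 14346 ± 1615, 20078 ± 1811 and 14285 ± 1501 (SD, n = 3) in unstimulated vector, unstimulated tSema4B, NE-treated vector and NE-treated tSema4B cells, and the sum of the mitochondrially encoded genes, in the same order, was 50376 ± 791, 24699 ± 977, 57409 ± 4206 and 29517 ± 2649. The sum over the 45 includes the complex IV genes Ndufa4 and Ndufa4l2, which held 1650, 1923, 2197 and 2056 of it in the same order. The ratio of the second to the first sum, which takes no account of transcript length and is compared only between groups, was 2.85 and 2.88 in vector cells and 1.74 and 2.09 in tSema4B cells, before and after NE. All mitochondrial genes together took 13.4% to 16.7% of the reads in vector libraries and 6.91% to 7.89% in tSema4B libraries.

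**Figure D5:**
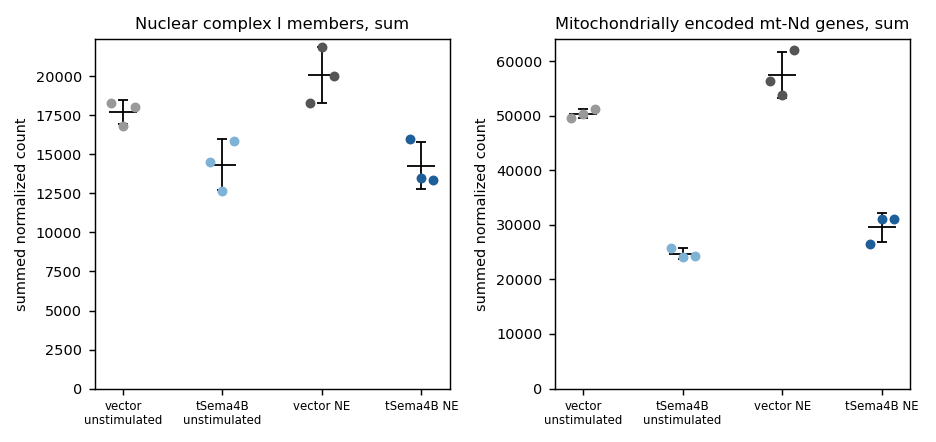
Summed normalized counts (vertical axes from zero) of the 45 nuclear members (left) and of the mitochondrially encoded mt-Nd genes (right) in each library (points), with the mean and SD of 3 libraries (bars). Both sums are lower in tSema4B than in vector libraries of the same condition, with ratios of the right to the left sum of 1.74 and 2.09 in tSema4B cells and 2.85 and 2.88 in vector cells. The left sum includes the complex IV genes Ndufa4 and Ndufa4l2.

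Assembly factors of complex I outside the Nduf names numbered 12 tested genes, of which 1 was lower without stimulation (Tmem70) and 5 after NE (Ecsit, Atp5sl, Tmem70, Foxred1 and Aifm1), and 0 were higher. Of all genes 7.39% and 11.2% were lower, so the first count is near the background and the second is above it. Leaving out 1 library ended the call of Tmem70 without stimulation (vector replicate 1 or tSema4B replicate 2) and, after NE, those of Atp5sl (any vector replicate or tSema4B replicate 1) and Foxred1 (vector replicate 1 or 2 or tSema4B replicate 2 or 3). Ecsit, which acts with Ndufaf1 in building the membrane arm, had log2 fold changes of -0.73 (SE 0.25, adjusted p = 0.0625) and -1.18 (SE 0.25, adjusted p = 0.00195). The other complexes of the chain were likewise lower in tSema4B cells. Without stimulation and after NE, 4 and 2 of the 4 subunits of complex II, 6 and 8 of 9 nuclear subunits of complex III, 8 and 11 of 13 of complex IV and 8 and 13 of 15 of ATP synthase were lower, and 0 were higher. Their median log2 fold changes were -0.40 and -0.31 for complex II, -0.70 and -0.65 for complex III, -0.56 and -0.85 for complex IV and -0.39 and -0.61 for ATP synthase, beside the -0.40 and -0.59 of the complex I genes.

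Regulators of respiratory genes were measured in the same libraries. Of 12 tested, 3 were lower and 0 higher without stimulation, namely Pparg, Nrip1 and Nrf1, and 4 were lower and 0 higher after NE, namely Ppargc1b, Pparg, Gabpb1 and Pprc1, beside the same shares of all genes. Of these calls, that of Nrip1 was lost without vector unstimulated replicate 3 or tSema4B unstimulated replicate 2, that of Ppargc1b without vector NE replicate 1 or 2, and that of Pprc1 without vector NE replicate 1 or 3 or tSema4B NE replicate 2 or 3. Pparg, the main adipogenic nuclear receptor, had log2 fold changes of -1.84 (SE 0.19, adjusted p = 2.75e-07) and -1.56 (SE 0.19, adjusted p = 3.06e-06). Nrf1, which encodes the factor whose motif is shown above, had -0.74 (SE 0.18, adjusted p = 0.00789) without stimulation and -0.45 (SE 0.18, adjusted p = 0.0802) after NE. Gabpb1, a partner of GABPA, had 0.09 (SE 0.24, adjusted p = 0.867) without stimulation and -1.08 (SE 0.24, adjusted p = 0.00227) after NE. Pprc1, a coactivator related to PGC-1 alpha, rose with NE in vector cells by 1.01 (SE 0.25, adjusted p = 0.0108), with -0.17 (SE 0.25, adjusted p = 0.777) in tSema4B cells, and the first of these calls was lost without vector unstimulated replicate 3 or vector NE replicate 1 or 3 (adjusted p of up to 0.0516). Pparg was lower with NE in vector cells at -0.71 (SE 0.19, adjusted p = 0.0146). That call was lost without vector unstimulated replicate 2 or vector NE replicate 1 or 3. With NE in tSema4B cells Gabpb1 was lower at -0.90 (SE 0.24, adjusted p = 0.0245) and Tfam higher at 0.50 (SE 0.14, adjusted p = 0.0354). The call of Gabpb1 was lost in 5 of 19 alternatives (adjusted p of up to 0.127). Ppargc1a and Esrra were low, at 20.8 ± 6.58 and 11.0 ± 6.01 normalized counts in unstimulated vector cells (SD, n = 3), and neither passed in any of the comparisons. Whether the regulators bear on the complex I genes was not tested.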

How the data were processed

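RNA of 12 samples (4 groups, 3 libraries each) had been made into cDNA by SMART-Seq2 and Nextera XT libraries and sequenced from a single end. The authors aligned reads with STAR 2.7.9a to GRCm38.p4 (mm10), counted them per gene with HTSeq and divided the counts by DESeq2 size factors, and these normalized counts are the deposited values, in unit a size-factor scaled signal. Annotation version, strand setting and the treatment of reads with several matches were not given in the sources used here. Within a tolerance of 0.01, 100% of the entries of each library came out as whole reads once divided by what 1 read is worth, so the reads behind each value were recovered (2000780 to 5409583 per library).

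The 45 genes and all gene lists were chosen with earlier results of these data known. All counts and medians cover the 45, and the values of 1 member are not reported here. The 11998 genes that reached 10 normalized counts in 3 libraries or more were tested with limma 3.58.1 (trend) in R 4.3.3 on log2(normalized count + 1), with all 12 libraries sharing one estimate of the spread, two-sided tests and Benjamini-Hochberg adjustment over all tested genes. Fold changes are on that scale and understate changes of low genes. Tests compared tSema4B with vector and NE with unstimulated within each level of the other factor, and the interaction. The threshold was an adjusted p of 0.05. Alternatives were the pseudocount, the filter, 3 other scalings, edgeR 4.0.16 and DESeq2 1.42.0 on the recovered reads, reads thinned to equal depth, the 6 libraries of a comparison alone, a replicate block and leaving out each library. The ribosomal covariate was added after the data were seen. Every library value is given for the up to 6 members of each direction with the largest log2 fold change past the test in a comparison, for the member farthest from the median in each, and for Ndufa4 and Ndufa4l2. Exon overlaps and repeated 100-base windows came from the GENCODE annotation and transcripts of GRCm38.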

Additional observations from a re-analysis of the deposited data

How the results depend on the processing

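No called value of the 45 members turned its sign, and of the 46 calls of single members 32 held in every alternative (11 of 16 without stimulation, 20 of 27 after NE and 1 of 3 for NE in vector cells). Leaving out 1 library in turn gave 12 to 20 members lower with tSema4B without stimulation and 20 to 29 lower after NE. Without stimulation 0 to 1 were higher (Ndufa4, without tSema4B unstimulated replicate 2). Of all genes in these fits, 4.86% to 6.9% were lower without stimulation and 8.01% to 10.4% after NE. The share of all genes higher without stimulation was 3.83% to 4.96%. For NE in vector cells leaving out 1 library gave 1 to 5 higher, where 3.69% to 5.1% of all genes were higher. In the other alternatives 13 to 22 members were lower without stimulation (3.37% to 10.3% of all tested genes) and 23 to 30 after NE (5.19% to 14.5%). A log2 change of 1 or more in size was reached by 1 and 5 of these, with the complex IV gene Ndufa4l2 in both counts. Such a change was also reached by 1 of the members that NE raised in vector cells. That last count, 3, was 1 under quantile normalization (6.18% of all genes), 6 in DESeq2 (8.39%), 11 in a fit of 6 libraries alone (9.85%) and 8 with the ribosomal covariate (7.77%), so its place below, near or above the background turns with the setting. Quantile normalization also called 1 member lower with NE in vector cells (Ndufv2, 5.43% of all genes) and 1 in tSema4B cells (Ndufa10, 2.58%). DESeq2 called 1 member for the interaction (Ndufc2). Of 28 calls of other named genes (that of Tfam not among them), 15 held in every alternative. Those of mt-Nd1 turned their sign under quantile normalization after NE for tSema4B (0.0217) and for NE in vector cells (-0.11). The cause of these shifts was not tested. The median over the 45 members ranged from -0.49 to -0.26 and from -0.65 to -0.49 for tSema4B, and from 0.15 to 0.26 and from -0.09 to 0.12 for NE, and from -0.32 to -0.10 for the interaction.

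After removal of group means, the correlations of 18 same-numbered pairs of libraries ran from -0.05 to 0.03. No strong pairing by the replicate numbers shared by the groups was thus seen, but such values cannot exclude a weak one. With a replicate block 15 members were lower without stimulation (7.1% of all genes) and 27 after NE (10.8%). In that fit 3 were higher with NE in vector cells, again close to the share of all genes (6.48%). For NE in tSema4B cells and for the interaction 0 passed.

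Depth limits Ndufa4l2 most, with 3 to 13 reads in tSema4B libraries.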
